A study of Mus musculus with 10 samples.

Results

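Transcripts of 7 heat shock chaperone genes, Hsph1, Chordc1, Hspa8, Hspa5, Dnajb1, Hsp90aa1 and Hsp90ab1, were examined in the hypothalamus of aged mice. The genes were selected on measured values of these samples, namely an Old against Young difference seen in an earlier pass over the same arrays, so their age differences are given as a description with no test. Probe sets annotated to 5 of the 7 genes were measured, among 19505 genes in all; Hspa8 and Hsp90ab1 were not analysed here. Each of the 5 had 1 probe set; elsewhere the probe set with the highest mean stands for a gene. Male mice of the inbred strain C57BL/6J aged 138 weeks (Old, 5 arrays) were compared with mice of the same strain and sex aged 24 weeks (Young, 5 arrays). All were fed and watered freely on a 12-h light and 12-h dark cycle, and the labels name no allele or agent. Total RNA of the hypothalamus was hybridised to the 1-colour Clariom S Mouse array. Whether the samples of an age came from separate animals is not in the labels; p-values here cover the spread among samples, and some of that may be technical.

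Heat shock chaperones bind unfolded or partly folded proteins and use ATP to refold them or hand them on. Most are present at rest and are raised by heat shock factor 1, which binds repeats of the bases GAA and their complement in promoters when unfolded protein accumulates. In the hypothalamus, the brain region that sets body temperature, feeding and daily rhythm, neurons that make peptide hormones in quantity also depend on the folding machinery of the endoplasmic reticulum (ER). That compartment has its own stress pathway, the unfolded protein response, which acts through other promoter elements.

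RefSeq promoter windows (assembly GRCm38.p6), from 250 bases before to 50 bases after a transcript start, were held for 4 of the 7 genes. They are shown because the 4 genes are those whose deposited values varied, and because heat shock and ER stress elements fall differently among them. Capitals mark 2 or more units of the heat shock element (GAANNTTC or TTCNNGAA and their continuations) and the ER stress response element (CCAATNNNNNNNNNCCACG), searched on both strands. Hsph1 lies at chr5:149636287-149636586 on the minus strand, Chordc1 at chr9:18292017-18292316 on the plus strand, Hspa5 at chr2:34771840-34772139 on the plus strand and Dnajb1 at chr8:83607925-83608224 on the plus strand. Where a gene had 2 windows (Hsph1 and Dnajb1), the first listed is printed.
Hsph1: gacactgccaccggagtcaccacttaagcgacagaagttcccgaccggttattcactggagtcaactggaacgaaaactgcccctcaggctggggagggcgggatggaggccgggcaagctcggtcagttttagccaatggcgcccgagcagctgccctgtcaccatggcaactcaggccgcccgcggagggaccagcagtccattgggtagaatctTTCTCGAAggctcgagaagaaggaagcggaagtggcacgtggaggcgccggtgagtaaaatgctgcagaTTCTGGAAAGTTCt
Chordc1: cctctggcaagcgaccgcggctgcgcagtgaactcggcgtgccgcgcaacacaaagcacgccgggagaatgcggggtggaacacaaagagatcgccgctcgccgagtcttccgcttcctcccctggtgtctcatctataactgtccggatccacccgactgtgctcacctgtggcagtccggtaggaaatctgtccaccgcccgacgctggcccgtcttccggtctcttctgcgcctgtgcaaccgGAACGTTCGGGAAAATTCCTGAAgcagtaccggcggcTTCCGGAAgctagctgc
Hspa5: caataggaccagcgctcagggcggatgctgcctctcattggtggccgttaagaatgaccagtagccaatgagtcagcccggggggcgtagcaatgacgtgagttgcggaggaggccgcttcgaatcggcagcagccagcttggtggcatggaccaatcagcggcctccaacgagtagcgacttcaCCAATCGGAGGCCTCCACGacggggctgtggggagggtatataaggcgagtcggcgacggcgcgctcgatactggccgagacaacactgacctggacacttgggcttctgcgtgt
Dnajb1: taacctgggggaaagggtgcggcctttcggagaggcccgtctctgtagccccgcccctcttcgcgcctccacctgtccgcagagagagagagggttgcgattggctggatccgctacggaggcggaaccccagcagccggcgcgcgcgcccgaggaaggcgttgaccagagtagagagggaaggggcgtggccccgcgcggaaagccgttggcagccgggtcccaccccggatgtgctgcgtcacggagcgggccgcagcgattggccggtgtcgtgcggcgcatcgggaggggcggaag

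The window of Chordc1 held 5 heat shock units in a row, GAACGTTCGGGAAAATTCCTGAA, from 4 bases before to 19 bases after the start. Among 32851 windows of the same length this run of 5 units (GAANNTTCNNGAANNTTCNNGAA) was found in 1, that of Chordc1. The window of Hsph1 held 3 units, TTCTGGAAAGTTC, from 37 to 49 bases after the start, and a separate pair, TTCTCGAA, from 33 to 26 bases before it. Runs of 3 units (GAANNTTCNNGAA or TTCNNGAANNTTC, which contain the 2-unit motifs) were in 0.603% of windows, and the 2-unit motifs GAANNTTC and TTCNNGAA in 7.86% and 8.52%. Hspa5 had no heat shock pair but an ER stress response element, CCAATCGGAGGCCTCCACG, from 65 to 47 bases before the start; this element was in 0.119% of windows. Neither kind of match was in either window of Dnajb1, which says only that these letters are not in those bases. Of the other genes listed for chaperones and folding, Dnajb6, Hspd1 and Hspe1 held 3 heat shock units, and Hsp90b1, Dnajc3, Pdia6, Calr, Canx, Creld2 and Syvn1 held an ER stress response element. The CCAAT box (CCAAT or ATTGG, which the ER element contains), a common promoter element, was in the windows of Hsph1, Hspa5 and Dnajb1 and in 37.4% of all windows. A match is a description of letters and not evidence of binding.

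**Figure D1:**
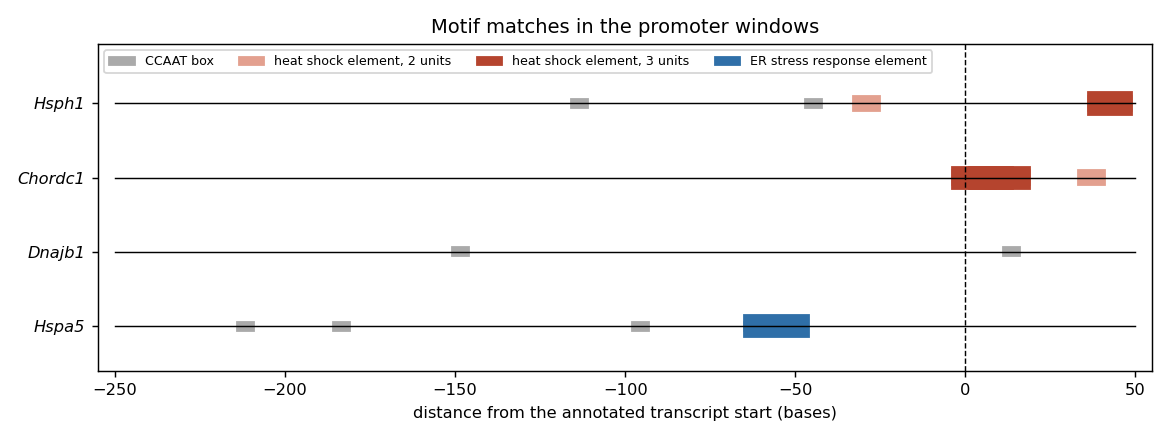
Matches in the promoter windows of the 4 genes, drawn to scale; the horizontal axis gives distance from the annotated transcript start in bases (dashed line at 0), and box colour gives the motif. The heat shock runs of Hsph1 and Chordc1 lie at or just after the start, while the ER element of Hspa5 lies 65 to 47 bases before it.

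Each probe set has a single deposited value on each array, read as log2 signal. For 98.6% of genes the population SD over the 10 arrays was under 0.01 log2 (it was 1e-05 within 1% for 19118 genes), and such a gene has a level but its values cannot show the size of an age difference. The other 276 genes are called varying. A fit to these genes alone was chosen with earlier results of these data known, so its p-values are not independent support. Of the 5 measured chaperone genes 4 varied: Hsph1, Chordc1, Hspa5 and Dnajb1. Dnajb1 lay just inside the limit, with an SD of 0.016 log2, and Hsp90aa1 lay far outside it at 1e-05. Array medians ran from 6.778 to 6.783 log2. On 2 arrays transcripts of other tissues stood out: Young 5 had Ttr, of choroid plexus, at 12.44 log2 where the other arrays reached at most 7.97, and Young 3 had the liver transcript Mup2 at 7.35 log2 where the others reached at most 6.39. The age differences of the chaperones and of the ER, cold-induced and immediate early genes are therefore also given without these 2 arrays. Of 12 hypothalamic peptide genes, all were measured and 6 varied, among them Pmch, the melanin-concentrating hormone gene, at 10.39 ± 0.086 in Old and 10.32 ± 0.087 log2 in Young (SD, n = 5 each). In the fit to the varying genes Avp, the vasopressin gene, rose by 0.62 log2 (limma's adjusted p = 0.00353, and 0.182 in the fit to all genes). Sst, the somatostatin gene, fell by 0.16 log2 in the fit to the varying genes (limma's adjusted p = 0.0272, and 0.465 in the fit to all genes). None of 11 neuron markers varied, so that list cannot show how neuronal content differed between arrays. Outside it, and named after their values were seen, the synaptic genes Syn1, Syngr3 and Cnih2 had differences of -0.15, -0.13 and -0.14 log2. These have the direction of the chaperones. Other varying neuronal genes were also picked after their values were seen, so they do not give the balance of directions. Prrt1, Gabra2, Cplx1 and Gria1 had -0.19, -0.14, -0.10 and -0.076 log2, and Gabra5 and Syt10 had 0.057 and 0.017 log2. The part of neuronal content in the chaperone differences was not tested.

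Each of the 4 varying chaperone genes had a lower mean in the Old hypothalamus, by 0.023 to 0.22 log2, which is -1.58% to -14.4% on the linear scale. Among all 276 varying genes 52.5% had a lower mean in Old, and the median difference was -0.019 log2, against -0.15 log2 over the 4. The age contrast was used to choose these genes, so nothing is read from their shared direction. In bulk tissue, fewer cells of a type and less RNA per cell cannot be told apart.

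Hsph1 encodes the HSP110 chaperone, a nucleotide exchange factor for HSP70 that also helps to dissolve protein aggregates. Its signal was 9.96, 10.08, 10.07, 10.23 and 10.09 log2 in Old 1 to Old 5, against 10.38, 10.20, 10.38, 10.33 and 10.26 log2 in Young 1 to Young 5. The groups overlapped in a single pair of arrays: Old 4 lay above Young 2, and the other 4 Old arrays lay below every Young array. The means were 10.08 ± 0.095 in Old and 10.31 ± 0.078 log2 in Young (SD, n = 5 each), a difference of -0.22 log2 (SE 0.052) or 0.856-fold. Without Young 3 and Young 5 the difference was also -0.22. Age accounted for 67.5% of the variance of Hsph1 over the 10 arrays, and 20 of the 276 varying genes had a more negative difference.

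Chordc1 encodes CHP-1, also called morgana, a protein with zinc-binding CHORD domains that binds HSP90 and acts as its co-chaperone. Its signal was 8.58, 8.57, 8.69, 8.68 and 8.66 log2 in Old 1 to Old 5, against 8.90, 8.72, 8.92, 8.73 and 8.86 log2 in Young 1 to Young 5. All 5 Old arrays lay below all 5 Young arrays, by a gap of 0.028 log2. Chordc1 was the only one of the 4 genes without overlap. Such a separation, lower in Old, was seen in 7.25% of varying genes. The means were 8.64 ± 0.055 in Old and 8.82 ± 0.095 log2 in Young (SD, n = 5 each), a difference of -0.19 log2 (SE 0.046) or 0.879-fold. It was -0.14 without Young 3 and Young 5, of which Young 3 was the highest of all arrays.

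Dnajb1 encodes HSP40, the J-domain protein that delivers clients to HSP70 and stimulates its ATPase. Its signal was 8.785, 8.790, 8.811, 8.819 and 8.808 log2 in Old 1 to Old 5, against 8.826, 8.808, 8.823, 8.833 and 8.838 log2 in Young 1 to Young 5. Young 2 lay among the upper Old arrays and the other 4 Young arrays lay above every Old array. The means were 8.802 ± 0.014 in Old and 8.825 ± 0.011 log2 in Young (SD, n = 5 each), a difference of -0.023 log2 (SE 0.0078) or 0.984-fold. That SE is from limma's fit to all genes, and in the fit to the varying genes it was 0.019. The difference was -0.020 without Young 3 and Young 5. The deposited spread of Dnajb1 was itself small: 2 of the 276 varying genes had a smaller SD. Age accounted for 49.3% of its variance, a larger share than for Hspa5. Such shares restate the age contrast used to choose the genes and are not support for a difference.

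Hspa5 encodes BiP (GRP78), the HSP70 of the ER lumen and the standard readout of the unfolded protein response. Its signal was 10.94, 11.12, 11.04, 11.18 and 11.17 log2 in Old 1 to Old 5, against 11.26, 10.97, 11.25, 11.17 and 11.31 log2 in Young 1 to Young 5. The groups overlapped widely: Old 1 was the only Old array below every Young array, and Young 2 lay below the other 4 Old arrays. The means were 11.09 ± 0.10 in Old and 11.19 ± 0.13 log2 in Young (SD, n = 5 each), a difference of -0.10 log2 (SE 0.071) or 0.93-fold, with 19.6% of the variance between ages. It was -0.046 without Young 3 and Young 5, -0.067 without Old 1 and -0.16 without Young 2, so single arrays moved its size by over 1.5 times while its sign stayed negative.

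**Figure D2:**
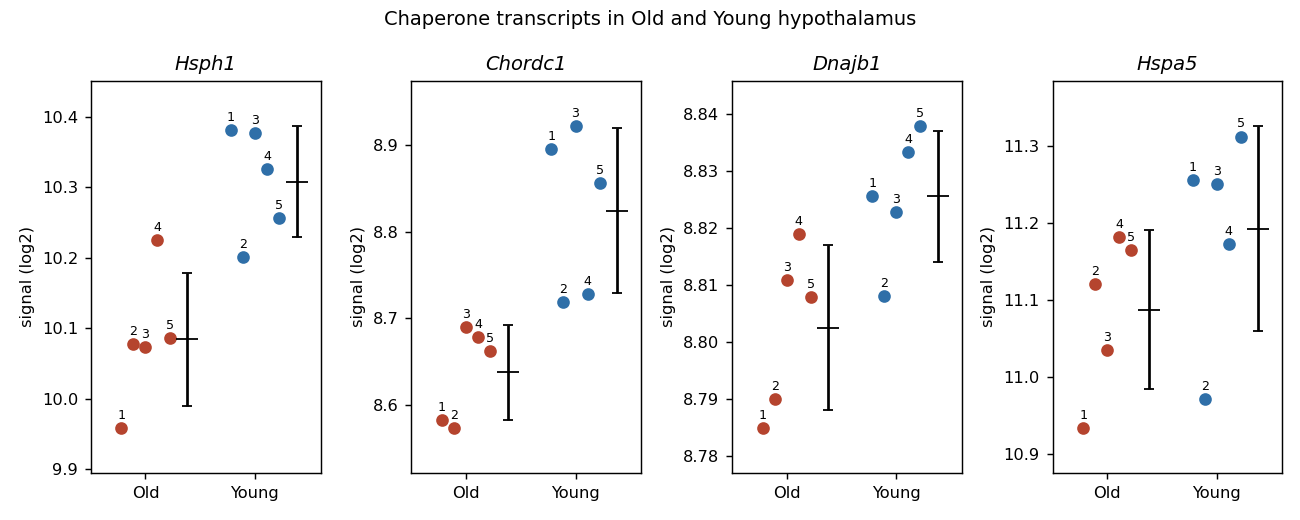
Signal (log2) of the 4 varying chaperone genes on each array, Old to the left of Young; numbers beside the points are replicate numbers, and the bar gives the mean ± SD (n = 5). The 5 Old arrays of Chordc1 lie below its 5 Young arrays, while the groups of Hspa5 overlap.

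Hsp90aa1 encodes the stress-inducible cytosolic HSP90, which folds kinases and steroid receptors. Its deposited level was 10.84 log2 on every array, with an SD of 1e-05, so it is given as a level only. With Hspa8, the constitutive cytosolic HSP70, and Hsp90ab1, the constitutive HSP90, not analysed here, the varying values cover HSP110, an HSP90 co-chaperone, HSP40 and the ER chaperone, and no cytosolic HSP70 or HSP90.

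In limma's fit to all 19505 genes, 0 of the 4 varying members had an adjusted p under 0.05 with a lower value in Old, where 0.0308% of genes did. When only the 276 varying genes were fitted, 2 of the 4, Hsph1 and Chordc1, had one, where 11.2% of genes did. Since this contrast was used to choose the genes, these counts are not support for a difference.

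**Figure D3:**
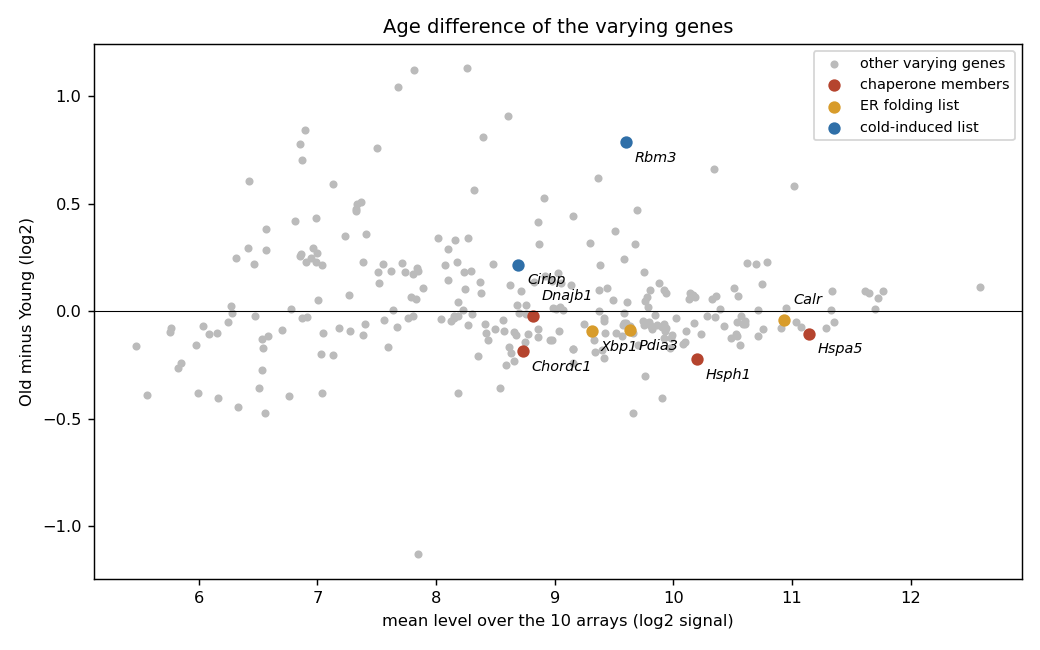
Old minus Young difference (log2) against mean level over the 10 arrays (log2 signal) for the 276 varying genes, with the 4 chaperones, 3 genes of ER folding and the cold-induced genes Rbm3 and Cirbp in colour. The chaperones and ER genes lie between 0 and -0.22, and Rbm3 and Cirbp lie above 0.

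Beyond the age contrast, the 4 genes varied together from array to array. Young 2 was the lowest Young array for each of the 4 genes. Old 1 was the lowest of all 10 arrays for Hsph1, Dnajb1 and Hspa5, and Old 4 was the highest Old array for the same 3 genes. With the mean of each age group removed, Pearson's r between pairs of the 4 genes ran from 0.53 (Chordc1 and Dnajb1) to 0.71 (Hspa5 and Dnajb1, and Hsph1 and Hspa5), with a median of 0.65 over the 6 pairs (n = 10 arrays). Over all 36856 pairs of the other varying genes the median r was 0.062 and the upper quartile 0.36. Points of this kind share an RNA sample and an array, so r describes these 10 arrays and carries no p. Spearman's rho ran from 0.36 (Chordc1 and Dnajb1) to 0.67 (Hspa5 and Dnajb1). Some pairs rested on few arrays: when the 2 arrays farthest from the median of the first gene were left out, r was 0.17 for Hspa5 and Dnajb1 (without Young 2 and Old 1) and 0.28 for Hsph1 and Dnajb1 (without Old 4 and Old 1), while for Hsph1 and Chordc1 it was 0.60. Within the Old arrays alone r ran from 0.41 to 0.95, and within the Young arrays alone from 0.29 to 0.82 (n = 5 each).

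By the mean deviation of the 4 genes, Young 2 was at -0.11 and Old 1 at -0.088 log2, and Old 4 was highest at 0.073 log2. The deviations were not scaled before averaging. Those of Dnajb1 ran from -0.018 to 0.016 and those of Hspa5 from -0.22 to 0.12 log2, so Dnajb1 adds little to this mean. Of the 272 other varying genes, Fam20a followed this mean most closely (r = 0.97, rho = 0.95, n = 10). Fam20a encodes a pseudokinase that activates the secretory-pathway kinase Fam20C. Its signal was 7.35, 7.48, 7.49, 7.67 and 7.56 log2 in Old 1 to Old 5, against 7.73, 7.50, 7.77, 7.68 and 7.70 log2 in Young 1 to Young 5. Old 1 and Young 2 were again the lowest of their groups, and without both arrays r was 0.91. The next closest were Peg10, an imprinted gene derived from a retrotransposon (r = 0.91), Dgkk, a diacylglycerol kinase (0.81), the beta protocadherin Pcdhb11 (0.80) and Sst (0.80). Without Young 2 and Old 1 these were 0.86 for Peg10, 0.62 for Dgkk, 0.50 for Pcdhb11 and 0.46 for Sst. Pcdhb11 differed from the chaperones in its age contrast, higher in Old by 0.23 log2 (SE 0.029, adjusted p = 0.015 in limma's fit to all genes, where 0.19% of genes passed higher in Old).

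At the other end, Gh, the growth hormone gene of the anterior pituitary, ran opposite to the 4 chaperones (r = -0.82, rho = -0.65, n = 10). It stood at 6.48 log2 in Young 2, where the other 4 Young arrays had 6.01 to 6.08, and at 6.12 log2 in Old 1, the highest of the Old arrays. Without these 2 arrays r was -0.36, so the relation rested largely on them. The part of pituitary tissue in the chaperone values was not tested. The next lowest were Luzp2, a leucine zipper protein gene (r = -0.66), the beta protocadherin Pcdhb8 (-0.61), Rbm3 (-0.60) and Cirbp (-0.59). Over all 272 genes the median r was 0.18, with quartiles of -0.084 and 0.45.

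**Figure D4:**
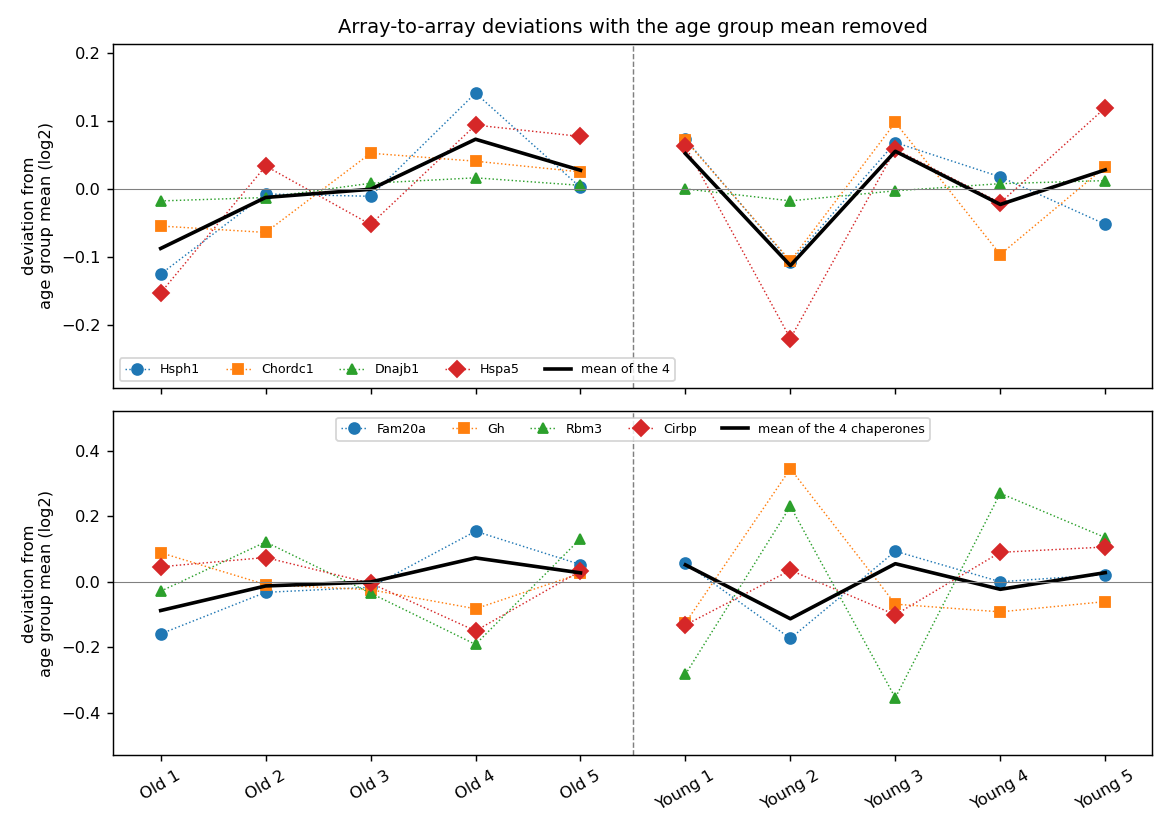
Deviation of each array from the mean of its age group (log2), for the 4 chaperones with their mean (top) and for Fam20a, Gh, Rbm3 and Cirbp beside that mean (bottom); lines join the points of a gene within a group and imply no order. Young 2 and Old 1 are low for the mean of the chaperones and for Fam20a, and Young 2 is high for Gh.

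Rbm3 and Cirbp encode RNA-binding proteins that are raised by mild cold, the opposite stimulus to heat shock, and both were in a list chosen beside the chaperones. That list was chosen with earlier results of these data known, so the p-values below are not independent support for a difference. Rbm3 was 9.96, 10.11, 9.96, 9.80 and 10.12 log2 in Old 1 to Old 5, against 8.92, 9.44, 8.85, 9.48 and 9.34 log2 in Young 1 to Young 5. All 5 Old arrays lay above all 5 Young arrays, and the difference was 0.78 log2 (SE 0.14) or 1.72-fold. Its adjusted p was 0.00148 in limma's fit to the varying genes, where 24.6% of genes passed higher in Old, and 0.0973 in the fit to all genes; the exact permutation p of 0.00794 is the smallest that 252 labellings allow. Cirbp was higher by 0.22 log2 (SE 0.059), with 4 of 5 Old arrays above all Young arrays (limma's adjusted p = 0.0202 in the varying genes and 0.426 over all genes). The 2 cold-induced genes rose in the fit to the varying genes, and the 4 chaperones had lower means on the same arrays. Both groups were chosen with earlier results of these data known, so nothing is read from their opposite directions. Without Young 3 and Young 5 the differences were 0.71 log2 for Rbm3 and 0.22 log2 for Cirbp (limma's adjusted p = 0.00571 and 0.0438 in the varying genes). Within ages, Young 1 and Young 3, which had the lowest Rbm3 of all arrays, had chaperone means 0.052 and 0.056 log2 above the Young average. Without Young 2 and Old 1 the within-age r was -0.79 for Rbm3 and -0.82 for Cirbp, more negative than with them. For Rbm3 the relation was weaker within the Old arrays (r = -0.30) than within the Young arrays (-0.75). For Cirbp r was -0.72 within Old and -0.50 within Young (n = 5 each).

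The wider folding machinery gave few usable values. Of 118 other genes in 9 lists of chaperones, co-chaperones, heat shock factors and ER folding, 109 were measured and 3 varied, all of them in the list of ER folding and the unfolded protein response. None of the 109 passed in the fit to all genes, and 0 of the 3 passed in the fit to the varying genes, in either direction (limma). At an unadjusted p under 0.05 there were 9 of the 109 in the fit to all genes, 5 higher and 4 lower in Old, beside 1331 of all 19505 genes. Of the 9, 8 differed by less than 0.001 log2 and the other was Calr. In the fit to the varying genes there were 0 of the 3, beside 132 of all 276. The 12 other HSP70 and HSP110 genes, among them the heat-inducible Hspa1a and Hspa1b, the 23 measured J-domain genes, the 17 HSP90 co-chaperones, the 9 HSP70 exchange factors and co-chaperones, the 8 small heat shock genes, the 15 chaperonin and prefoldin genes, the heat shock factor genes Hsf2 and Hsf4 with the inhibitor gene Hsbp1, and the 2 other HSP90 genes held 0 varying genes. Their values therefore cannot show whether the lower means of Hsph1 and Chordc1 extended to them. Over the 109 genes the median difference was -1.57e-06 log2, against -8.74e-08 over all genes.

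**Figure D5:**
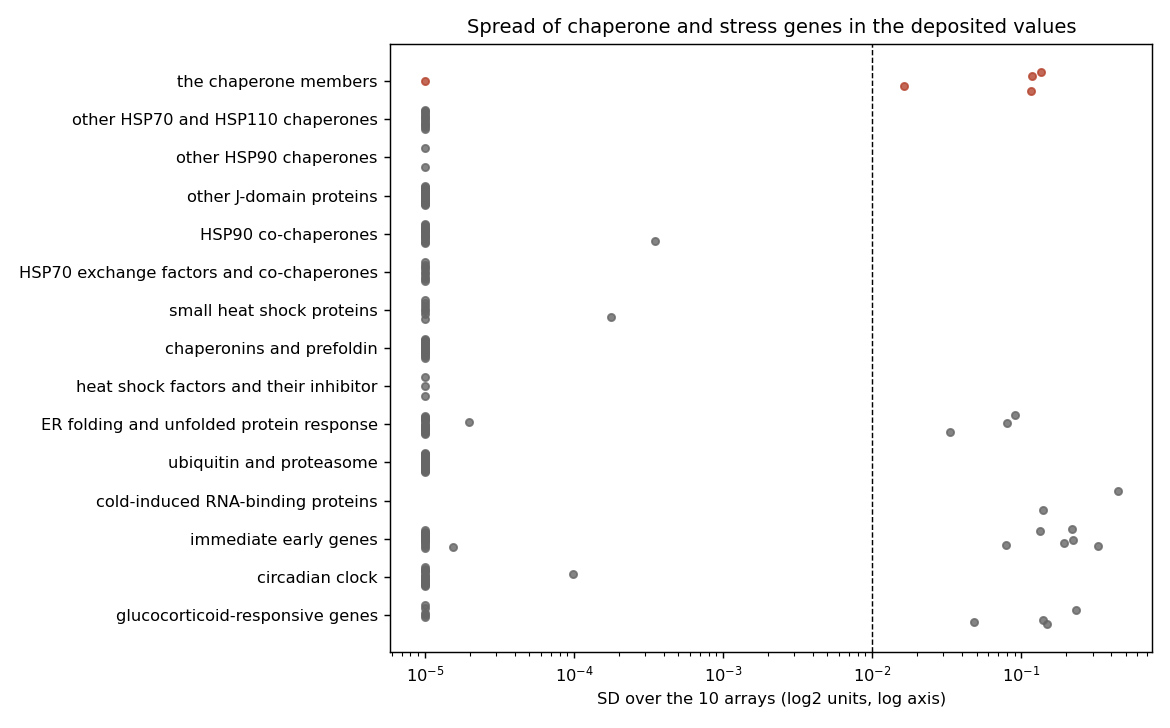
SD over the 10 arrays (log2 units, log axis) of every measured gene in the chaperone and stress lists, 1 point per gene; the dashed line marks 0.01 log2, above which a gene is called varying. Of the 5 measured members 4 lie right of the line, and most genes of the other lists lie at 1e-05.

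The 3 varying ER genes had lower means in Old, as Hspa5 did, and did not pass. Pdia3, a disulfide isomerase of glycoprotein folding, had a difference of -0.088 log2 (SE 0.044, limma's adjusted p = 0.166 in the varying genes). Xbp1, the transcription factor of the unfolded protein response, had -0.091 (SE 0.052, limma's adjusted p = 0.203), and Calr, the calcium-binding chaperone calreticulin, -0.043 (SE 0.017, limma's adjusted p = 0.182). These SE values are from the fit to all genes and the adjusted p-values from the fit to the varying genes, where the SE of Calr was 0.024. All 5 Old arrays lay below the Young mean for each of the 3. Young 2 was the lowest Young array for all 3, as it was for Hspa5, and without it Pdia3 was at -0.13 and Xbp1 at -0.13 log2, with an adjusted p of 0.0239 and 0.0365 in limma's fit to the varying genes. Leaving out Young 5 instead gave -0.058 for Pdia3 and -0.057 for Xbp1. Without both Young 3 and Young 5 the differences were -0.029 for Pdia3, -0.050 for Xbp1 and -0.021 for Calr (limma's adjusted p = 0.609, 0.521 and 0.583), so the size of each turned on a few Young arrays. With the age means removed, r with the mean of the 4 chaperones was 0.52 for Pdia3, 0.52 for Xbp1 and 0.63 for Calr (n = 10). Within the Young arrays it was 0.73 for Pdia3, 0.77 for Xbp1 and 0.84 for Calr, and within the Old arrays -0.23, -0.029 and 0.23 (n = 5 each). Without Young 2 and Old 1 the within-age r was 0.097 for Pdia3, -0.28 for Xbp1 and 0.40 for Calr, so the likeness of Pdia3 and Xbp1 to the chaperones rested on those arrays.

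Among genes of other stress responses, 6 of the 23 immediate early genes varied and 3 of these 6 rose in the fit to the varying genes, where 24.6% of genes passed higher in Old. This list, too, was chosen with earlier results of these data known. In the fit to all genes 0 of the 23 passed (limma). At an unadjusted p under 0.05 there were 6 of the 23, of which 2 differed by less than 0.001 log2, and 1331 of all 19505 genes. Ccn1, a matricellular protein gene, was higher by 0.56 log2 (SE 0.11, limma's adjusted p = 0.00248 in the varying genes), with all 5 Old above all 5 Young arrays, and Fos by 0.34 (SE 0.095, 0.0202). Nr4a1, a nuclear receptor gene, was higher by 0.19 (SE 0.064, limma's adjusted p = 0.0479), and leaving out any 1 of the 9 arrays besides Old 2 ended the call (adjusted p up to 0.0964), as did leaving out both Young 3 and Young 5 (0.128). Without Young 3 and Young 5 the differences were 0.51 log2 for Ccn1, 0.32 for Fos and 0.18 for Nr4a1. Egr1, Nr4a3 and Dusp1 had differences of 0.24, 0.23 and 0.083 log2 and did not pass, and without Young 3 and Young 5 they had 0.17, 0.19 and 0.071. Leaving out Old 2 took Egr1 to 0.30 (limma's adjusted p = 0.0357 in the varying genes), leaving out Young 3 took Nr4a3 to 0.14, and leaving out Old 4 took Dusp1 to 0.044. Old 4, the highest Old array for 3 of the chaperones, was also the highest array for the mean of the 6 varying immediate early genes, at 9.03 log2, but within ages that mean had an r of 0.14 with the chaperones. Of the 9 glucocorticoid-responsive genes 4 varied (Sgk1, Cdkn1a, Mt1 and Mt2) and 0 passed in either of limma's fits, with 0 also at an unadjusted p under 0.05, and of 26 ubiquitin and proteasome genes and 16 clock genes 0 varied.

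Markers of cell types and neighbouring tissues were set beside the chaperone values. For choroid plexus, 7 of 9 measured markers varied and their mean ran from 6.57 to 6.72 log2 in Old and from 6.56 to 8.55 log2 in Young, the top value being Young 5. For liver, 3 of 10 varied, with 7.48 to 7.68 in Old and 7.43 to 8.31 log2 in Young, the top value being Young 3. The 3 were Alb, Mup2 and Trf, at mean levels of 6.15, 6.16 and 10.62 log2. Their age differences were -0.10, -0.40 and 0.22 log2, so the 3 did not share a direction. For striatal neurons, 4 of 9 varied, with 7.76 to 8.28 in Old and 7.83 to 8.29 log2 in Young; Young 2, low for the chaperones, was the highest, and Young 1, high for them, was the second highest of the Young arrays at 8.19. Within ages, r with the mean of the 4 chaperones was 0.24 for choroid plexus, 0.28 for liver and -0.22 for striatal markers. It was 0.65 for the 4 varying of 10 astrocyte markers, 0.44 for the 5 varying of 9 oligodendrocyte markers -0.28 for the 2 varying of 10 microglial markers and 0.061 for the 1 varying of 8 endothelial markers (n = 10 arrays). The mean of the varying astrocyte markers ran from 10.43 to 10.53 in Old and from 10.35 to 10.42 log2 in Young. Its 4 genes had unlike age differences: 0.44 for Gfap, 0.061 for Aldoc, 0.0040 for Slc1a2 and -0.14 log2 for Gja1. The r of 0.65 has the age means removed, so these differences do not bear on it. For oligodendrocyte markers the mean ran from 9.98 to 10.08 in Old and from 9.95 to 10.15 log2 in Young. Of these 5 genes 3 had a higher and 2 a lower mean in Old, from -0.24 log2 for Cldn11 to 0.14 log2 for Ermn. For microglial markers it ran from 8.06 to 8.33 in Old and from 7.83 to 7.95 log2 in Young. The 2 varying microglial markers were the complement genes C1qa and C1qb, so these means are not measures of cell number. The part of cell composition in the chaperone differences was not tested.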

How the data were processed

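Messenger RNA of 5 Old and 5 Young hypothalamus samples was measured on the Clariom S Mouse array from 100 ng of total RNA each, per the labels' protocols. The authors deposited 1 log2 value per probe set and array; the log base was read from the range of 5.00 to 12.97, and background correction, normalization and summarisation were not stated in any source at hand. No detection call was used; precision is limited by having 10 arrays. The platform annotation names 19572 of 22206 probe sets with 1 gene, 0 with several and 2634 not at all; all 19572 identifiers matched RefSeq (GRCm38.p6). The probe set with the highest mean was kept per gene.

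Old was compared with Young with limma 3.58.1 (R 4.3.3; lmFit and eBayes, 2-sided, Benjamini-Hochberg over all 19505 genes, threshold 0.05), and again over the 276 varying genes, those with a population SD of at least 0.01. The second fit was chosen with earlier results of these data known. Its SD filter spans both ages, so an age difference can help a gene to enter it. SE values are from the first fit. A gene rose or fell where it passed the fit named. The procedure was tried on simulated data. The added changes were larger than the chaperone differences here, so the trial does not bear on differences of that size. For genes that are not members a 2-sided exact permutation test over arrays was added.

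Members and lists were chosen with earlier results of these data known. The genes named are the members, the varying genes of the chaperone and stress lists, up to 4 varying genes of each marker list, and the 5 varying genes most and the 5 least like the mean of the 4 varying members. Likeness is Pearson's r of deviations from the age group means. Alternatives were quantile normalization, median centring, a filter on dim genes, other priors, each array left out, Young 3 and Young 5 left out, and a replicate block.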

Additional observations from a re-analysis of the deposited data

Results flagged for a closer look

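In 27 named genes the lowest or highest array of each age group was compared with its nearest neighbour, and 2 of 54 groups had an array that stood apart (its gap to the next exceeded Dixon's critical value as a share of the range); chance gives about 1 in 20 groups. Gh stood at 6.48 log2 in Young 2, where the nearest Young array had 6.08, and Young 2 was also the lowest Young array for Hsph1, Chordc1, Dnajb1 and Hspa5. Ccn1 stood at 7.71 log2 in Young 3, where the nearest Young array had 8.07. No array of the 4 chaperones stood apart by this measure.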

How the results depend on the processing

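The differences of Hsph1, Chordc1, Dnajb1 and Hspa5 stayed below 0 in Old under every alternative run. These genes were chosen on this contrast, so the stable sign is not support for a difference. Some alternatives could not change it: other priors leave a difference as it is, as does averaging over the 1 probe set of each gene. With single arrays left out the differences ran from -0.26 to -0.19 for Hsph1, from -0.21 to -0.16 for Chordc1, from -0.027 to -0.019 for Dnajb1 and from -0.16 to -0.067 for Hspa5. The mean over the 4 was -0.13, and -0.16 to -0.11 with single arrays left out. The median within-age r of 0.65 among the 4 genes ran from 0.48 (without Young 2) to 0.73 (without Young 4). The fit to all genes called 43 genes, 29 to 42 with single arrays left out, 23 at an adjusted p under 0.01, 24 without Young 3 and Young 5, and 6618 (154 higher and 6464 lower) with quantile normalization, which moves genes with almost no spread; it also called 90 of the 185 measured genes of the other chaperone and stress lists, against 0 in the deposited values. Rises were 37 of the 43 calls. The fit to the varying genes called 99 (68 higher and 31 lower), 80 to 100 with single arrays left out, and 62 at an adjusted p under 0.01; of the other chaperone and stress lists it called 5, and 4 to 6 with single arrays left out. Replicate numbers are shared between the ages, but same-numbered arrays did not deviate together (r from -0.22 to 0.28 over 276 genes), so they were not taken as pairs. With the replicate number as a block the fit to all genes called 11 genes and the fit to the varying genes 79, and Cirbp had an adjusted p of 0.0621. The absence of detection calls and the shrunken deposited spread limit what any of these values can show.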
